A study of Rattus norvegicus and Mus musculus with 9 samples.

Results

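The genes of cholesterol and fatty acid synthesis were compared between rat embryonic stem (ES) cells and rat embryonic fibroblasts, and their ranks were then set beside those in mouse ES cells. The set holds 46 genes, chosen by name: the sensors that control sterol synthesis, the enzymes of the mevalonate and sterol pathways, sterol carriers, and the enzymes that make, desaturate, elongate, activate or bind fatty acids. Of these, 43 were among the 14506 genes of the rat table, 42 among the 19938 genes of the mouse table, and 39 among the 12114 symbols shared by both. Srebf1, Hmgcs1 and Elovl1 were not analysed here in the rat, and Acat2, Scd, Acsl1 and Acsl3 were not analysed here in the mouse. Each gene stands for 1 probe set, the brightest of its symbol.

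Total RNA from each sample was hybridized to 1 microarray, with 3 arrays a group and 9 in all. The rat ES cells were of strain DA and were grown in a medium that the labels name 3I. The rat embryonic fibroblasts, also of strain DA, were kept in GMEM and fetal bovine serum. The mouse ES cells (strain C57/BL6) had that serum medium with LIF added, and their feeder cells were taken away before extraction. The labels give no such step for the rat ES cells, and name no line, sex or passage. Cell type and medium differ together between the rat groups, so their parts in any difference cannot be told apart.

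Cells make cholesterol from acetyl-CoA through mevalonate, isoprenoids and squalene, and make fatty acids from the same precursor through malonyl-CoA. The transcription factors of the SREBP family drive both sets of enzymes: SCAP carries SREBP out of the endoplasmic reticulum when membrane sterol is low, and the INSIG proteins hold it there when sterol is high. Dividing cells need both products for new membrane, and desaturases and elongases then set the length and unsaturation of the acyl chains.

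Median log2 signals lay between 5.71 and 5.74 on the rat arrays and between 4.75 and 4.77 on the mouse arrays, and precision throughout is limited by the small number of arrays. All 6 measured pluripotency markers were called higher in rat ES cells. Of 8 fibroblast markers, 7 were called lower. The summed linear signal of the 8 fibroblast markers was 7965 to 9353 on the rat ES arrays and 60802 to 64084 on the rat fibroblast arrays. Col1a1, a collagen gene of fibroblasts, read 9.71, 10.17 and 10.56 on the 3 rat ES arrays, against 13.85 to 13.95 in rat fibroblasts. Signal of fibroblast markers was thus present on the rat ES arrays and differed among them, and its part in the differences below was not tested. None of 9 adipocyte markers was called in either direction (summed signal 349 to 356 in rat ES cells and 346 to 416 in rat fibroblasts). Of these 9, 6 were under the array medians in rat ES cells and 7 in rat fibroblasts, among them Adipoq, Plin1 and Cidec, while Cebpa and Retn were above in both groups. Of 7 macrophage markers, 1 was called higher (Laptm5, 14.6-fold) and 1 lower (Cd14, 11.4-fold). Of 8 markers of primitive and visceral endoderm, 0 were called higher and 2 lower (Dab2, 19.4-fold, and Gata6, 3.44-fold). Over all genes, 10.6% were called higher and 10.1% lower. In extracts of whole cultures, fewer cells of a type and less RNA per cell cannot be told apart. Nothing in the labels says that replicate arrays hold separate cultures, so the p-values rest on a spread between arrays that may be only technical.

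Among the genes that differed most, enzymes of sterol and fatty acid synthesis were higher in rat ES cells, and the desaturases Fads2 and Fads3 and the elongase Elovl5 were lower. A gene was called at a limma adjusted p under 0.05 and a difference of at least 2-fold. By that rule 9 of the 43 genes were called higher (20.9%), against 10.6% of all genes tested, and 3 were called lower (6.98%), against 10.1%. By the adjusted p alone, 24 were higher (55.8%, against 30.9% of all genes) and 7 were lower (16.3%, against 25.5%). The arrays of the rat groups did not overlap for 35 of the 43 genes (81.4%), against 61.5% of all genes. The median log2 difference, rat ES cells minus rat fibroblasts, was 0.34 over the 43 genes and -0.001 over all genes. The genes called higher were Dhcr7, Scd, Fdft1, Acat2, Acsl1, Sqle, Acly, Fasn and Nsdhl, and those called lower were Fads3, Fads2 and Elovl5.

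**Figure D1:**
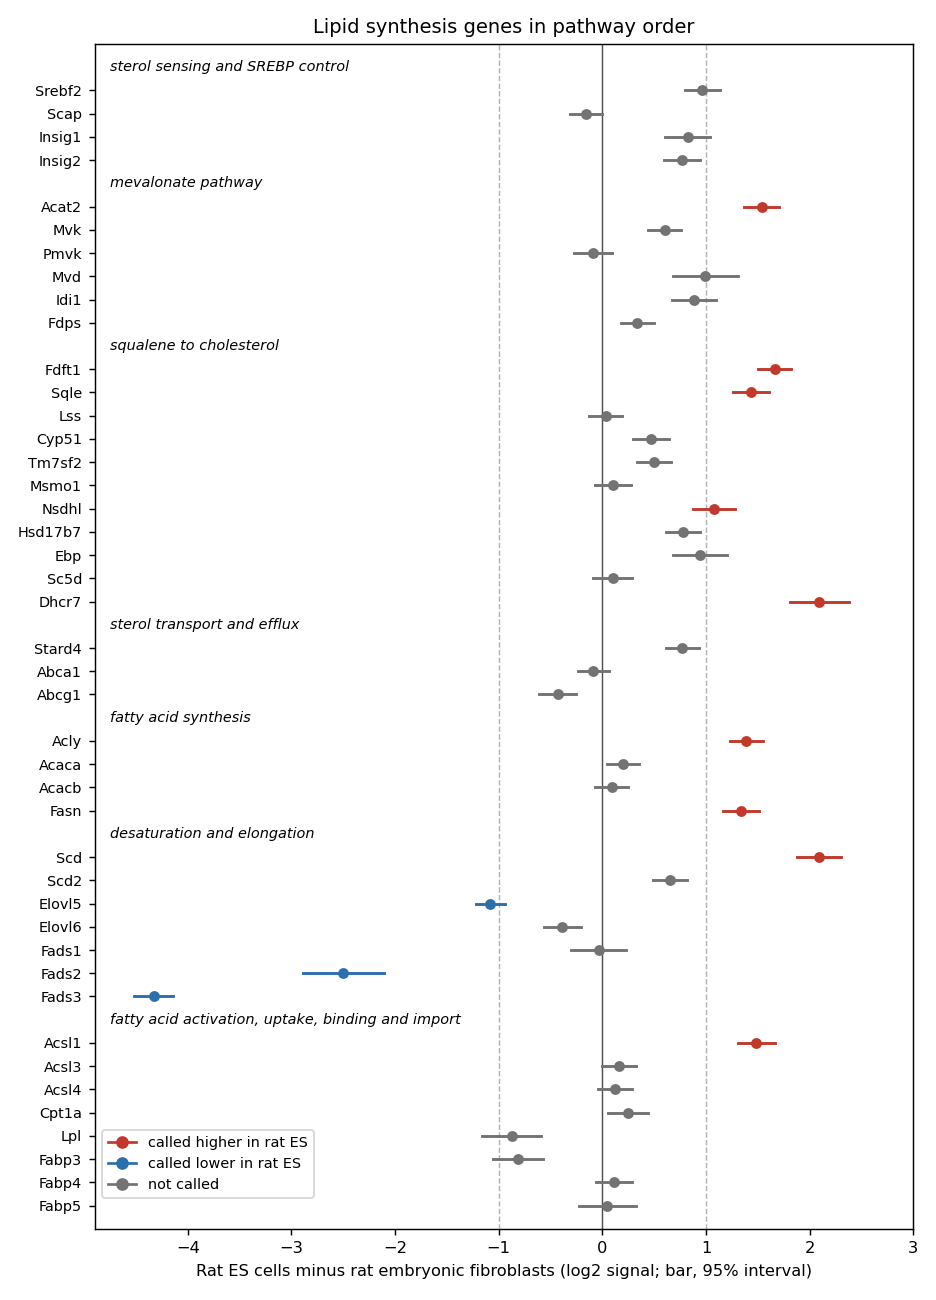
Log2 difference in signal, rat ES cells minus rat embryonic fibroblasts, for the 43 measured genes in pathway order, as points with 95% intervals from limma (3 arrays a group). Dashed lines mark a 2-fold difference. Called genes of the cholesterol pathway all lie to the right, while Fads3, Fads2 and Elovl5 lie to the left.

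Among the sterol sensors, 3 of 4 measured genes passed the adjusted p upward, against 30.9% of all genes. None reached 2-fold, and the median log2 difference of the list was 0.80. Srebf2, which encodes the SREBP that mainly drives sterol enzymes, had log2 signals of 9.84, 10.02 and 9.99 in rat ES cells, against 8.99, 9.02 and 8.95 in rat fibroblasts. All rat ES arrays were above all fibroblast arrays, by 0.97 ± 0.07 log2 (adjusted p = 5.84e-06), where ± gives the SE of a log2 difference here and below. Insig1, itself a target of SREBP and its retainer, read 10.16, 10.38 and 10.46 in rat ES cells, against 9.54, 9.42 and 9.58 in rat fibroblasts. The rat ES arrays were again the higher, by 0.82 ± 0.09 (adjusted p = 7.61e-05), and a second Insig1 probe set gave 0.86. Insig2, the related retainer, was higher by 0.77 ± 0.07 (adjusted p = 2.7e-05). Scap, the SREBP escort, had 8.01, 8.11 and 8.06 in rat ES cells, against 8.18, 8.28 and 8.20 in rat fibroblasts. Its groups did not overlap and rat ES cells were the lower, but the difference of -0.16 ± 0.07 did not pass (adjusted p = 0.0738). It passed under quantile normalization (-0.25, adjusted p = 0.00845), among genes above the 25th percentile of level (0.0461) and with trend and robust settings (0.0407).

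The mevalonate pathway turns acetyl-CoA into the isoprenoid units of sterols. Of 6 measured genes, 5 passed the adjusted p upward and 0 downward, against 30.9% and 25.5% of all genes. The median log2 difference was 0.74, and Acat2 alone reached 2-fold. Acat2, the cytosolic thiolase that joins acetyl-CoA units at the head of the pathway, read 10.50, 10.67 and 10.61 in rat ES cells, against 9.02, 9.04 and 9.11 in rat fibroblasts. The groups were far apart against a spread of 0.09 and 0.05 within them (SD, n = 3 each), a 2.9-fold difference (adjusted p = 3.31e-07). Mvd, which decarboxylates mevalonate pyrophosphate, lay just under 2-fold, with 8.37, 8.55 and 8.70 in rat ES cells, against 7.69, 7.26 and 7.69 in rat fibroblasts. Fibroblast array 2 stood below the other fibroblast arrays for Mvd, and the difference was 0.99 ± 0.14 (adjusted p = 0.000248). Idi1, the isomerase that balances the isoprenoid units, was higher by 0.89 ± 0.09 (adjusted p = 4.06e-05) and Mvk, mevalonate kinase, by 0.60 ± 0.07 (adjusted p = 7.06e-05). Pmvk, the kinase between Mvk and Mvd, was the exception, with overlapping groups and a difference of -0.09 ± 0.08 (95% interval -0.28 to 0.09, adjusted p = 0.363).

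Fdps, which condenses the isoprenoid units to farnesyl pyrophosphate, read 10.41, 10.55 and 10.55 in rat ES cells, against 10.18, 10.16 and 10.15 in rat fibroblasts. Its rat ES arrays were all higher, by 0.34 ± 0.07 log2 (adjusted p = 0.0026), the smallest of the 5 mevalonate differences that passed. Its promoter is shown because it holds both motifs searched for SREBP-driven genes. The motifs are the SRE-like letters TCANNCCAC and the CCAAT box, CCAAT, which binds the SREBP partner NF-Y, each on either strand, and capitals mark them here and in the promoters below. The letters before the start of Fdps (RefSeq, GRCr8, chr2:176804817-176805066, minus strand, 250 bases up to the start, 5′ to 3′) hold 1 SRE-like match, which ends 151 bases before the start, and 2 CCAAT boxes, and these do not overlap.
Fdps: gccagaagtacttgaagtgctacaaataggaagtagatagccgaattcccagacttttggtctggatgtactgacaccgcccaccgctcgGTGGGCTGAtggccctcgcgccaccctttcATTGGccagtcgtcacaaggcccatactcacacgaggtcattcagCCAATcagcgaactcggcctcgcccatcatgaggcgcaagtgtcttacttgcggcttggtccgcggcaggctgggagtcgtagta

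Between squalene and cholesterol, 11 of 11 genes were measured, and the median log2 difference was 0.78. Of the 11, 8 passed the adjusted p upward and 0 downward, against 30.9% and 25.5% of all genes. The 4 called genes spanned the pathway from its first step to its last. Fdft1, squalene synthase, which commits isoprenoids to sterols, read 10.58, 10.73 and 10.72 in rat ES cells, against 9.002, 9.01 and 9.02 in rat fibroblasts. Its groups were separate by far more than the spread within either, a 3.17-fold difference (log2 1.67 ± 0.07, adjusted p = 1.67e-07). Sqle, the oxygenase that acts on squalene, had 9.93, 10.11 and 10.09 in rat ES cells, against 8.64, 8.65 and 8.54 in rat fibroblasts. This was 2.7-fold (log2 1.43 ± 0.08, adjusted p = 6.19e-07), with no overlap between groups.

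Nsdhl, a dehydrogenase that helps to remove methyl groups from the sterol ring, read 9.26, 9.39 and 9.52 in rat ES cells, against 8.27, 8.26 and 8.41 in rat fibroblasts. The rat ES arrays were all higher, at 2.11-fold (log2 1.08 ± 0.09, adjusted p = 8.87e-06). Dhcr7, the reductase that finishes cholesterol from its immediate precursor, read 9.27, 9.61 and 9.72 in rat ES cells, against 7.54, 7.48 and 7.30 in rat fibroblasts. At 4.27-fold (log2 2.09 ± 0.12, adjusted p = 1.27e-06) it had the largest log2 difference of the 43 genes upward. Both promoters are shown since both genes were called higher and their motif counts differ (RefSeq, GRCr8, plus strand, 250 bases before the start, 5′ to 3′). The Nsdhl window (chrX:155817110-155817359) holds 5 CCAAT boxes and 0 SRE-like matches, and the Dhcr7 window (chr1:208444184-208444433) holds 0 of either and 2 GC boxes (GGGCGG, not in capitals).
Nsdhl: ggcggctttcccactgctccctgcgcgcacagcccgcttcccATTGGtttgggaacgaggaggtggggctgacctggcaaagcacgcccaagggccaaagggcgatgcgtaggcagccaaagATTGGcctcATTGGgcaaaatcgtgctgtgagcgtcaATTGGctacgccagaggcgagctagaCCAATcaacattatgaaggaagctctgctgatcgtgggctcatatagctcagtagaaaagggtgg
Dhcr7: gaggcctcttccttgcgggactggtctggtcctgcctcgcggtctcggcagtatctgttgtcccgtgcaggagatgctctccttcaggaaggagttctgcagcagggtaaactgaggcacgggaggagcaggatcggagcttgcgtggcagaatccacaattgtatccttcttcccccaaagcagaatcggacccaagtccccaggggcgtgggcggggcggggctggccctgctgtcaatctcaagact

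Ebp, the sterol isomerase, was close to 2-fold, with 7.92, 8.24 and 8.31 in rat ES cells, against 7.26, 7.30 and 7.09 in rat fibroblasts. Rat ES array 1 was the lowest of its group, yet above every fibroblast array, and the difference was 0.94 ± 0.11 (adjusted p = 0.000109). Hsd17b7, a ketosteroid reductase, was higher by 0.78 ± 0.07 (adjusted p = 1.92e-05). Tm7sf2, a sterol reductase, was higher by 0.50 ± 0.07 (adjusted p = 0.000293) and Cyp51, which demethylates lanosterol, by 0.47 ± 0.08 (adjusted p = 0.000771). The other three did not pass, and their groups overlapped. Lss, which closes the sterol rings, differed by 0.03 ± 0.07 (95% interval -0.13 to 0.19). Msmo1, the methyl oxidase that works with Nsdhl, differed by 0.10 ± 0.08 (95% interval -0.07 to 0.28) and Sc5d, which introduces a ring double bond, by 0.10 ± 0.08 (95% interval -0.09 to 0.29). These unadjusted intervals end well short of 2-fold. Over the whole cholesterol pathway, 17 of 18 enzymes were measured and 16 had a positive difference. Of the 17, 13 passed the adjusted p upward, against 30.9% of all genes, and 5 were called higher, against 10.6%.

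**Figure D2:**
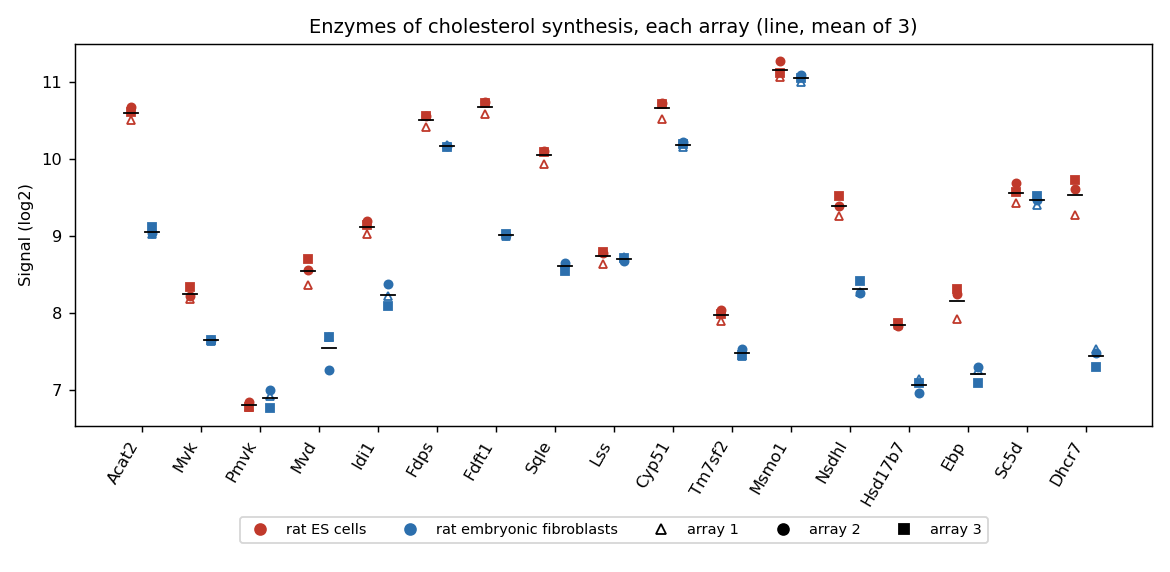
Log2 signal on each array for the 17 measured enzymes of cholesterol synthesis, in rat ES cells (left of each pair) and rat embryonic fibroblasts (right), with lines at the means of 3. Levels of different genes are not comparable, since each probe set has its own response. The groups are apart for 13 of the 17 genes, against 61.5% of all genes, and meet for Pmvk, Lss, Msmo1 and Sc5d. The open triangle of rat ES array 1 is mostly the lowest of its group.

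CCAAT boxes were found in the 250 bases before the start in 24 of the 35 genes with a promoter entry (68.6%), against 35.6% of 11968 promoters of genes in the rat table and 34.0% of all 33469 promoters. Among the enzymes of cholesterol synthesis it was 12 of 15, among genes called higher 3 of 6 and among genes called lower 2 of 3. The GC box GGGCGG was found in 24 of 35 (68.6%), against 47.3% of promoters of genes in the rat table and 30.5% of all promoters. SRE-like letters were in 3 of 35 (8.57%: Insig2, Fdps and Elovl5), against 3.03% of promoters of genes in the rat table and 3.3% of all. They were in 0 of 6 genes called higher and 1 of 3 called lower. Pmvk, Fdft1, Sqle, Stard4, Abcg1, Acaca, Fasn, Elovl6, Lpl, Fabp4 and Fabp5 had no promoter entry and were not searched. A match describes letters in this window and is no evidence of binding, and its absence says nothing of the factor. Other forms of the SRE were not searched, so any such site stays unmarked in the promoters shown.

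Of the 3 sterol transport genes, 1 passed the adjusted p upward and 1 downward, against 30.9% and 25.5% of all genes. The median log2 difference of the list was -0.09. Stard4, a soluble sterol carrier, read 6.96, 6.95 and 7.09 in rat ES cells, against 6.19, 6.21 and 6.28 in rat fibroblasts. It was higher in rat ES cells by 0.77 ± 0.07 (adjusted p = 1.83e-05). Abcg1, which exports sterol from cells, was lower, with a log2 difference of -0.43 ± 0.08 (adjusted p = 0.00139), but it was below the array medians in both groups. Abca1, the exporter that loads apolipoprotein with cholesterol, differed by -0.09 ± 0.06 (95% interval -0.23 to 0.06, adjusted p = 0.294).

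Fatty acid synthesis starts when citrate is cut to acetyl-CoA. Of its 4 measured genes, 3 passed the adjusted p upward and 0 downward, against 30.9% and 25.5% of all genes. Of the 4, 2 were called higher, against 10.6% of all genes, and the median log2 difference was 0.77. Acly, the enzyme of that step, read 10.63, 10.76 and 10.73 in rat ES cells, against 9.31, 9.37 and 9.27 in rat fibroblasts. Every rat ES array was higher, at 2.62-fold (log2 1.39 ± 0.07, adjusted p = 4.27e-07). Fasn, fatty acid synthase, which builds palmitate, read 10.92, 11.13 and 11.10 in rat ES cells, against 9.71, 9.75 and 9.67 in rat fibroblasts. The groups were likewise apart, at 2.53-fold (log2 1.34 ± 0.08, adjusted p = 1.06e-06). Acaca, the acetyl-CoA carboxylase that makes malonyl-CoA for synthesis, read 8.47, 8.60 and 8.53 in rat ES cells, against 8.30, 8.38 and 8.33 in rat fibroblasts. It passed the adjusted p with a small difference of 0.20 ± 0.07 (adjusted p = 0.0344). That pass was lost under quantile normalization (0.10, adjusted p = 0.211) and the replicate block (0.0507), and without rat ES array 2 (0.12) or 3 (0.066) or fibroblast array 1 (0.104) or 3 (0.0802). Acacb, the mitochondrial carboxylase, was below the array medians in both groups and differed by 0.09 ± 0.07 (adjusted p = 0.312).

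The desaturases and elongases went both ways: of 7 measured, 2 passed the adjusted p upward and 4 downward. Of all genes, 30.9% passed upward, near the share here, and 25.5% downward. The median log2 difference of the list was -0.38. Scd, a stearoyl-CoA desaturase that makes monounsaturated fatty acids, read 9.28, 9.53 and 9.51 in rat ES cells, against 7.43, 7.25 and 7.37 in rat fibroblasts. It was 4.26-fold higher in rat ES cells (log2 2.09 ± 0.09, adjusted p = 2.27e-07), with all arrays apart. Scd2, another stearoyl-CoA desaturase, near Scd on rat chromosome 1, read 12.44, 12.58 and 12.57 in rat ES cells, against 11.83, 11.90 and 11.90 in rat fibroblasts. It was higher by 0.65 ± 0.07 (adjusted p = 5.46e-05), under 2-fold. These desaturases are close in sequence, and whether probes of one also read the other was not tested.

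Of the 3 Fads desaturases, Fads2 and Fads3 were called lower and Fads1 was not called. Fads2, the desaturase that opens the conversion of dietary polyunsaturated fatty acids, read 6.55, 7.30 and 7.09 in rat ES cells, against 9.45, 9.50 and 9.49 in rat fibroblasts. Rat ES array 1 was well below the other rat ES arrays, and all 3 were far below every fibroblast array, a 5.66-fold difference (log2 -2.50 ± 0.17, adjusted p = 2.77e-06). Fads3, a family member that acts on sphingoid bases, read 5.34, 5.33 and 5.57 in rat ES cells, against 9.73, 9.74 and 9.76 in rat fibroblasts. The deposited values differed 20.1-fold (log2 -4.33 ± 0.08, adjusted p = 4.04e-09), the largest difference of the 43 genes in size. The rat ES values were below the array medians and no measure of background was used here, so the size of that fold is uncertain. Fads1, the desaturase of the later step, read 8.68, 9.13 and 9.04 in rat ES cells, against 8.91, 9.05 and 8.996 in rat fibroblasts. Its groups overlapped and its difference was -0.04 ± 0.12 (95% interval -0.30 to 0.23, adjusted p = 0.825).

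Elovl5, which elongates polyunsaturated chains, read 8.90, 8.87 and 8.94 in rat ES cells, against 9.97, 9.98 and 10.00 in rat fibroblasts. All rat ES arrays were lower, at 2.11-fold (log2 -1.08 ± 0.06, adjusted p = 1.04e-06). Elovl6, which elongates palmitate, was lower, with a log2 difference of -0.38 ± 0.08 (adjusted p = 0.00249), under 2-fold. RefSeq places the protein-coding genes Fads3, Fads2 and Fads1 next to one another in that order on rat chromosome 1, so genes with differences of -4.33, -2.50 and -0.04 are neighbours.

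The promoters of the genes called lower are shown to set them beside those of the sterol enzymes (RefSeq, GRCr8, 250 bases before the start, 5′ to 3′). Elovl5 (chr8:87670914-87671163, plus strand) holds 1 SRE-like match, ending 28 bases before the start, and 2 CCAAT boxes. Fads3 (chr1:216110623-216110872, plus strand) holds 2 CCAAT boxes and Fads2 (chr1:216172034-216172283, minus strand) holds 0, neither with SRE-like letters.
Elovl5: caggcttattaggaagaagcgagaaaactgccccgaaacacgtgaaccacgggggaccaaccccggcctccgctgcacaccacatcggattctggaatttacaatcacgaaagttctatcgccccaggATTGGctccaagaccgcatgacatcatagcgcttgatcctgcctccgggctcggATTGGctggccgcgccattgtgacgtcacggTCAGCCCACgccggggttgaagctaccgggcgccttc
Fads3: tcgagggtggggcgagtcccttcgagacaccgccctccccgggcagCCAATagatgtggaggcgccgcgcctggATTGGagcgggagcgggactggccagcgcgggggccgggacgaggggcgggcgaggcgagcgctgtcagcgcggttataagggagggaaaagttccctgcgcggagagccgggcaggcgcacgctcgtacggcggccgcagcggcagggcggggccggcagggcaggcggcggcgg
Fads2: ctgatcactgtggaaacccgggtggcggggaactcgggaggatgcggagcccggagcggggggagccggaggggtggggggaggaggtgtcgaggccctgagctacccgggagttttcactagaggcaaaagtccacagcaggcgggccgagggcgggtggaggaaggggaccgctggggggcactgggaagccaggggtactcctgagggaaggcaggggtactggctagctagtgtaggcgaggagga

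**Figure D3:**
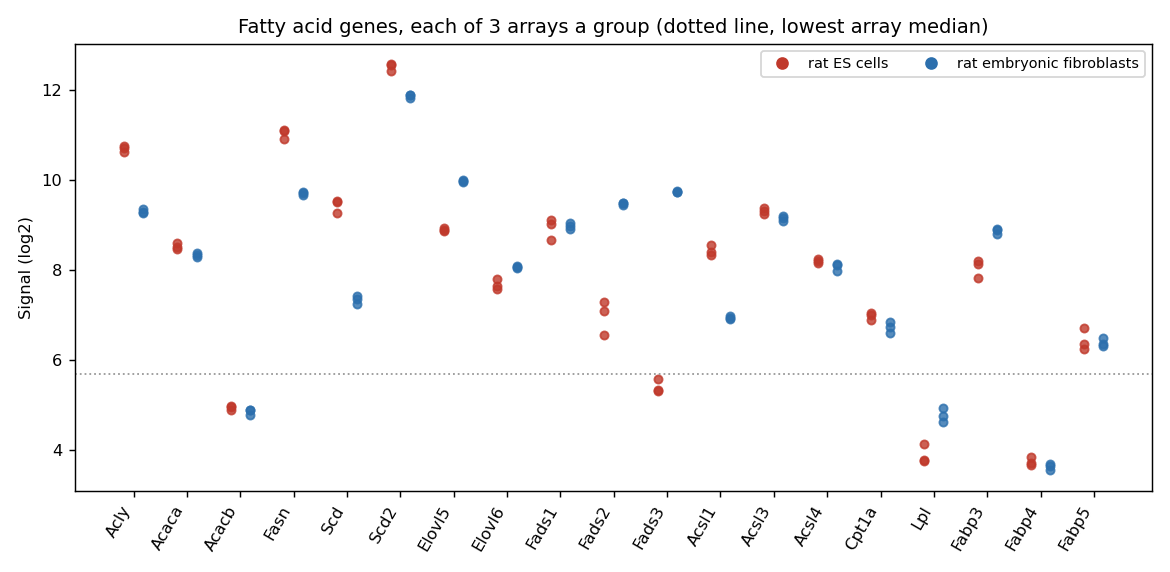
Log2 signal on each of 3 arrays a group for the genes of fatty acid synthesis, desaturation, elongation, activation and binding, in rat ES cells (left of each pair) and rat embryonic fibroblasts (right). The dotted line is the lowest median of the rat arrays. Fads3 lies below it in rat ES cells at 5.33 to 5.57, and at 9.73 to 9.76 in rat fibroblasts.

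Of the 8 genes of fatty acid activation, uptake, binding and import, 2 passed the adjusted p upward and 2 downward. These counts were near the shares of all genes, 30.9% and 25.5%, and the median log2 difference was 0.12. Acsl1, which activates long-chain fatty acids to acyl-CoA, read 8.34, 8.56 and 8.40 in rat ES cells, against 6.99, 6.91 and 6.95 in rat fibroblasts. It was the only one of the 8 called, at 2.8-fold (log2 1.49 ± 0.08, adjusted p = 6.04e-07). The related Acsl3 and Acsl4 differed by 0.16 ± 0.07 (adjusted p = 0.0851) and 0.12 ± 0.07 (adjusted p = 0.177), without passing. Acsl3 passed under median centring (adjusted p = 0.0187) and with trend and robust settings (0.0207). Cpt1a, which admits fatty acids to mitochondria for oxidation, was higher by 0.25 ± 0.08 (adjusted p = 0.0358). That pass was lost without rat ES array 2 (adjusted p = 0.0953) or 3 (0.1), or fibroblast array 1 (0.121) or 3 (0.0715).

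Fabp3, a fatty acid binding protein of muscle, read 7.82, 8.21 and 8.15 in rat ES cells, against 8.89, 8.91 and 8.82 in rat fibroblasts. Rat ES array 1 was the lowest, no array overlapped, and the difference was -0.81 ± 0.11 (adjusted p = 0.000177). Lpl, the lipase that frees fatty acids from lipoproteins, was below the array medians in both groups and lower in rat ES cells, with a log2 difference of -0.88 ± 0.12 (adjusted p = 0.000295). Fabp4, of adipocytes, was also below the medians and differed by 0.11 ± 0.08 (adjusted p = 0.258). Fabp5, of skin, overlapped and differed by 0.05 ± 0.12 (adjusted p = 0.776), and its second probe set carried the same values on every rat array.

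Other genes of sterol and fatty acid metabolism stood beside the set in 2 further lists. Of 30 sterol genes listed, 22 were measured. Of these 22, 11 passed the adjusted p upward and 4 downward, against 30.9% and 25.5% of all genes. By the 2-fold rule 5 were called higher and 1 lower, against 10.6% and 10.1%, and the median log2 difference was 0.15. The largest upward differences among those called were 4.48 ± 0.09 for Apoe, a lipoprotein component (adjusted p = 4.11e-09), 1.79 ± 0.07 for Scarb1, the HDL receptor (adjusted p = 1.51e-07), and 1.55 ± 0.19 for Soat2, which esterifies cholesterol (adjusted p = 1.19e-04). Vldlr, a lipoprotein receptor, was the one called lower, at -2.48 ± 0.09 (adjusted p = 8.55e-08).

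Of 46 fatty acid and glycerolipid genes listed, 38 were measured. Of these 38, 13 passed the adjusted p upward and 12 downward, against 30.9% and 25.5% of all genes. By the 2-fold rule 6 were called higher and 3 lower, against 10.6% and 10.1%, and the median log2 difference was -0.005. Lpin1, a phosphatidate phosphatase, differed by 2.48 ± 0.08 (adjusted p = 5.64e-08), the lipid droplet protein Plin3 by 2.08 ± 0.08 (adjusted p = 8.56e-08), and Mid1ip1, an activator of acetyl-CoA carboxylase, by 1.64 ± 0.07 (adjusted p = 1.5e-07). Acsl5, another acyl-CoA synthetase, differed by -2.16 ± 0.08 (adjusted p = 8.77e-08), the oxidation enzyme Acadvl by -1.42 ± 0.07 (adjusted p = 2.99e-07), and Me1, the malic enzyme that supplies NADPH, by -1.38 ± 0.09 (adjusted p = 1.71e-06).

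The rat ES arrays were not alike for these genes. Rat ES array 1 was the lowest of its group for 34 of 43 genes (79.1%), for 16 of 17 cholesterol enzymes (94.1%) and for 9 of 9 genes called higher, against 38.9% of all genes. The median of array 1 minus the mean of the other rat ES arrays was -0.14 log2 over the 43 genes and over the cholesterol enzymes alone, and -0.015 over all genes. The gap was largest for Fads2, where array 1 read 6.55 and the others 7.30 and 7.09. Col1a1 was also lowest on array 1, and whether that bears on these genes was not tested. Without array 1, 12 genes were called higher and 4 lower, since Srebf2, Mvd and Ebp rose past 2-fold at 1.02, 1.08 and 1.06 log2, and Lpl reached -1.001.

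**Figure D4:**
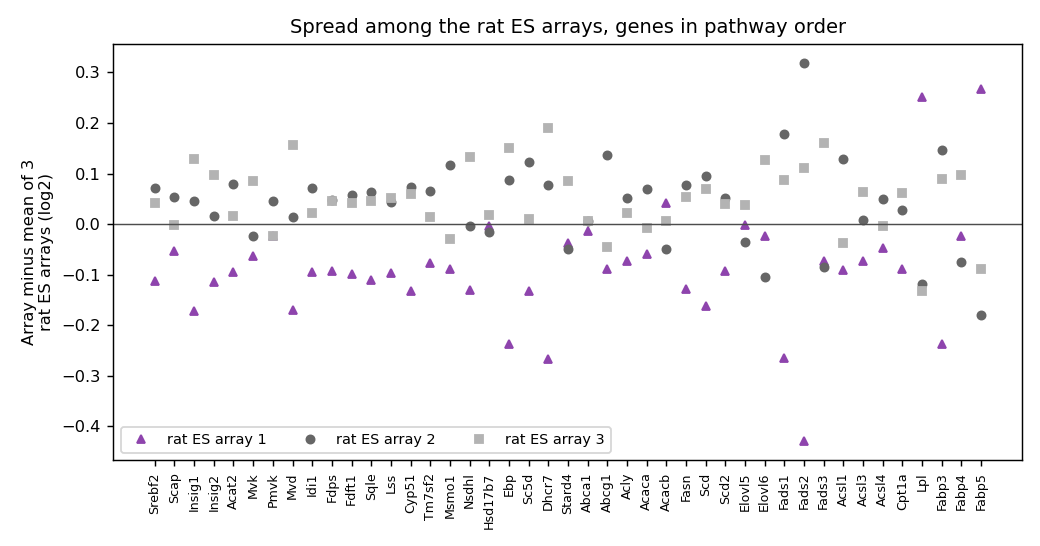
Log2 signal of each rat ES array minus the mean of the 3, for the 43 genes in pathway order. Triangles of array 1 lie below 0 for most genes from Srebf2 to Scd2, and above 0 for Lpl and Fabp5.

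The genes of the set were compared with mouse ES cells by rank only, as the percentile of a gene among the 12114 shared symbols on its own array, since the platforms and tables differ. Many deposited mouse values repeat: 10850 of 19938 genes (54.4%) and 21 of the 42 measured genes of the set have 1 value on all 3 mouse arrays. No SD is therefore given for them, and no test was run on the percentiles: an exact two-sided permutation test of 3 arrays against 3 cannot go below 0.10. Species, strain, medium and platform differ together here and cannot be told apart. Percentiles below are means of 3 arrays.

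A gap of at least 20 points with no overlap was found upward in mouse for 4 of 39 genes (10.3%, against 8.98% of shared genes) and downward for 2 (5.13%, against 9.75%). Abcg1 stood at the 81.7th percentile in mouse ES cells and the 26.0th in rat ES cells. Fads2 stood at 88.7 in mouse ES cells, 54.7 in rat ES cells and 91.5 in rat fibroblasts, so the mouse rank was near that of rat fibroblasts. Acacb stood at 50.3 in mouse and 22.5 in rat ES cells, and Elovl6 at 87.6 in mouse and 65.9 in rat ES cells. Cyp51 stood at 67.2 in mouse and 97.5 in rat ES cells, and Sc5d at 68.5 in mouse and 92.2 in rat ES cells. At any size of gap, mouse ES cells were below rat ES cells for 25 of 39 genes (64.1%), against 48.6% of shared genes. Those shared genes were not matched for rank. Several genes of the set, such as Scd2 at 99.8 and Msmo1 at 98.6 in rat ES cells, had little room to rank higher in mouse. Whether high rank alone gives the 64.1% was not tested.

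Genes called between the rat groups did not share 1 pattern in the mouse. The mouse percentile was nearer to rat ES cells than to rat fibroblasts for 6 of 9 called genes (66.7%), against 66.5% of all called genes. Fads3 stood at 37.2 in mouse ES cells, 30.5 in rat ES cells and 93.3 in rat fibroblasts, so it was low in ES cells of both species. Fdft1 stood at 95.2 in mouse ES cells, 97.5 in rat ES cells and 87.0 in rat fibroblasts. Fasn stood at 96.9 in mouse ES cells, 98.3 in rat ES cells and 93.1 in rat fibroblasts. All 3 groups thus ranked Fdft1 and Fasn high. Acly stood at 96.3 in mouse ES cells, 97.6 in rat ES cells and 90.2 in rat fibroblasts. Nsdhl stood at 74.5 in mouse ES cells, 90.7 in rat ES cells and 78.1 in rat fibroblasts, the mouse being nearer to rat fibroblasts. Dhcr7 stood at 76.9 in mouse ES cells, 91.8 in rat ES cells and 63.2 in rat fibroblasts, the mouse lying between.

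**Figure D5:**
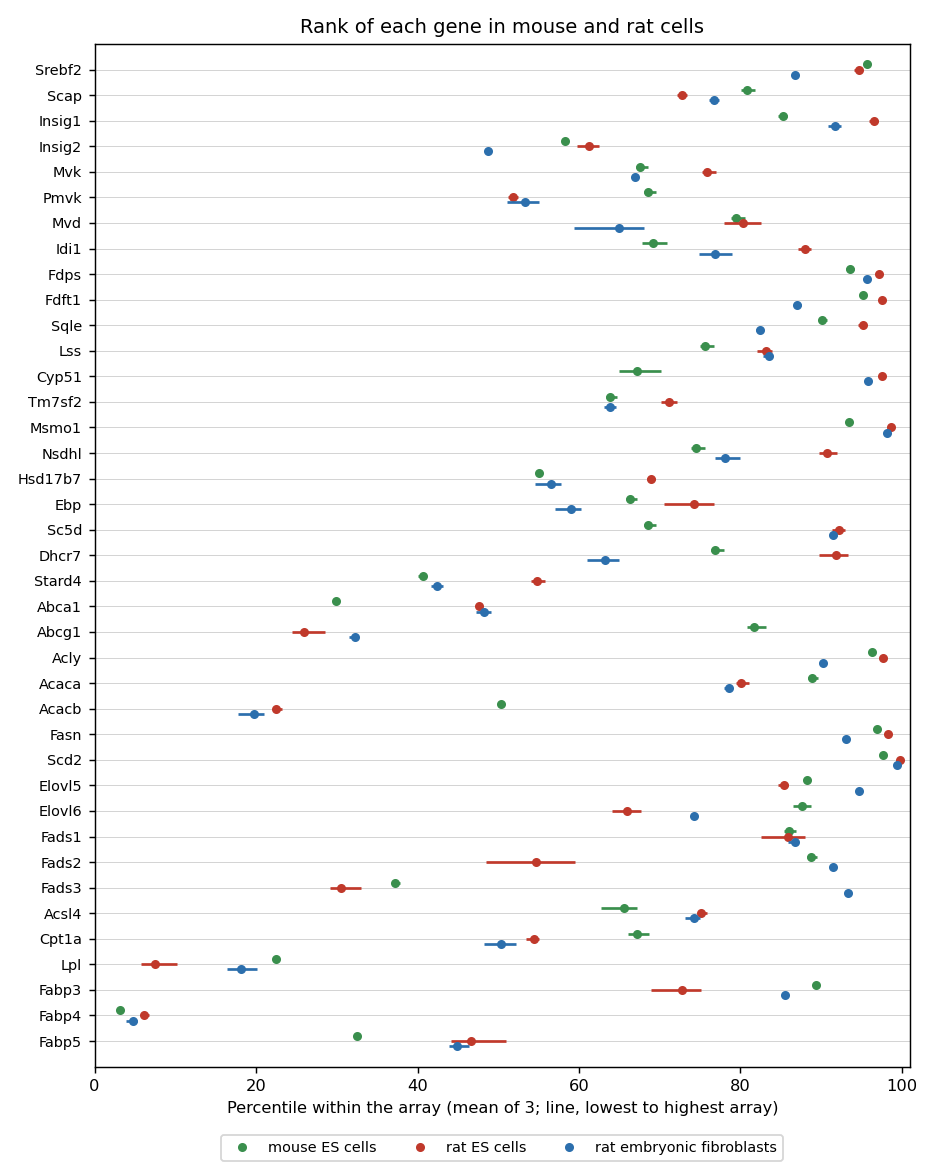
Percentile within the array, among symbols shared by both tables, for the 39 genes measured in both species. Points are means of 3 arrays and lines run from the lowest to the highest array, for mouse ES cells, rat ES cells and rat embryonic fibroblasts. Abcg1 and Fads2 lie far higher in mouse than in rat ES cells, and Cyp51 and Sc5d lower.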

How the data were processed

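Each sample's total RNA was turned into biotin-labelled DNA for 1 array, per the labels' protocols. As deposited by the authors, log2 values for each probe set stand in a rat table of 6 arrays and a mouse table of 3. The log2 scale was read from the range of the values. How background, normalization and probe summary were handled, and on which build, is not given in the sources used here. Probe sets were named through the platform annotation, some of it dated. A single symbol was listed for 15310 of 29215 rat probe sets and for 21789 of 35557 mouse probe sets. Several symbols were listed for 323 rat and 1621 mouse probe sets, and none for 13582 rat and 12147 mouse probe sets, and all of these were left out, and the brightest probe set of a symbol was kept.

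Differences between the rat groups were tested with limma 3.58.1 under R 4.3.3, by lmFit and eBayes with group as the only term. The p-values were adjusted by Benjamini-Hochberg over 14506 genes, with no filter on level. The code was tested on simulated data. Mouse values were used as percentiles within arrays (pandas 2.3.3), since the tables were processed separately. Intervals are 95% limits from limma's moderated t distribution. Promoters came from RefSeq's table (GRCr8). Every measured gene of the set is named. Of the other pathway genes, up to 3 called genes in each direction per list are named. The genes and lists were chosen with earlier results of these data known.

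Rat arrays with the same replicate number were checked for pairing: their deviations from the group means correlated at -0.00044, 0.031 and -0.000296, and no pairs were assumed. Alternatives were quantile normalization, median centring, only genes over the 25th percentile of mean level, a gene's probe sets averaged, its other probe set, eBayes with trend and robust settings, the replicate block, other thresholds and each array left out in turn. Mouse ranks were also taken with percentiles among all named genes, the mean of all probe sets, genes with 3 different mouse values, a gap of 30 points, and each array left out in turn.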

Additional observations from a re-analysis of the deposited data

How the results depend on the processing

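Without the fold threshold, 24 genes were higher and 7 lower in rat ES cells, in place of 9 and 3. All 2996 genes that differed at least 2-fold in the rat table also passed the adjusted p, so the fold threshold alone set the calls, and an adjusted p under 0.01, trend and robust settings and the replicate block each gave 9 and 3. The rat samples share only replicate numbers, and the replicate block changed no call by that rule. By the adjusted p alone, the other normalizations, filters, fits and left-out arrays gave 22 to 25 genes higher and 7 to 8 lower, with Acaca, Cpt1a, Scap and Acsl3 changing sides. Acaca missed it under the replicate block (adjusted p = 0.0507). Leaving out each rat array gave 9 to 12 genes called higher and 3 to 4 called lower, the highest counts without rat ES array 1. Over all 14506 genes, median centring called 1718 higher and 1373 lower, in place of 1538 and 1458. Its median log2 difference over all genes was 0.068, in place of -0.001. Within the set, median centring called 12 higher and 3 lower, with Srebf2, Mvd and Ebp past 2-fold. Mvd also passed without fibroblast array 1 (1.07 log2) or fibroblast array 3 (1.07). Of differences that were not called, Lss turned to -0.035 under quantile normalization and Fads1 to 0.033 under median centring. Leaving out each rat array gave -0.124 to 0.097 for Fads1 and -0.088 to 0.136 for Fabp5, with the sign turned without rat ES array 1. No called difference changed direction under any of these alternatives. A gap of at least 30 percentile points left 3 of 6 genes apart between mouse and rat ES cells. Leaving out each array gave 6, percentiles among all named genes gave 5, and 5 of the 10 genes with 3 different mouse values passed when ranked anew among such genes only. On the percentiles reported, 2 of those 10 did, Cyp51 and Elovl6. The causes of these changes were not tested. Abcg1, Acacb, Lpl and Fabp4 were below the array medians in both rat groups, where signal over background limits what a difference can show.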
